A study of Mus musculus with 2 samples.

Results

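The regions described here are strong accessible sites of wild-type early thymic progenitors for which no peak was called close by in progenitors lacking E2A and HEB. They were chosen from the deposited peak lists by score and position. A wild-type peak on an autosome was taken as strong if its score was at or above the 70th percentile of the whole wild-type list, a score of 12.6, and it was counted as lost if no double-knockout peak lay within 500 bp, edge to edge. Of the 85764 wild-type peaks, 25359 were strong and autosomal, and 1847 of these were lost. The other 23512 strong peaks had a double-knockout peak within 500 bp and are called kept. "Lost" describes the lists only.

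Open DNA was mapped by ATAC-seq, with a transposase that inserts adapters where chromatin is accessible. The 2 libraries came from fetal thymus of C57BL/6 mice. The wild-type library was made from cells sorted as CD4-, CD8-, Lin-, CD44+, CD25- and ckit+, which are early thymic progenitors (ETPs). The double-knockout library was made from E2Afl/flHEBfl/flIL7RCre mice with the same surface gate and YFP+ as a further criterion, so floxed E2A and HEB alleles were combined with a Cre driven from the IL-7 receptor locus. Only cells that express that locus, or descend from such cells, are expected to delete the alleles, and deletion was not checked here. No replicates exist: each genotype has 1 library, and no difference between genotypes was tested. Exact Clopper-Pearson 95% intervals are given for shares. These reflect counting error alone and take each peak as an independent count. How deeply either library was sequenced is unknown from the lists. Genotype, the YFP gate and any difference between the mice cannot be told apart, and the wild-type list held 10 peaks on chromosome Y while the double-knockout list held 0. In sorted bulk cells, fewer cells with an open site and less opening per cell cannot be told apart either.

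E2A and HEB are E proteins, which belong to the basic helix-loop-helix family and recognise E-box motifs in enhancers and promoters. Id proteins pair with them and keep them off DNA. In the thymus, E proteins are known to promote the T cell programme, including the antigen receptor recombination genes, while high Id2 activity is a feature of innate lymphoid cells. A peak list does not show which factor bound at a site.

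The lost regions were mostly of moderate strength. Their scores had a median of 15.6 (quartiles 13.8 and 18.4, range 12.6 to 57.5), at percentile 77.1 of the wild-type list, against a median of 21.9 (16.1 and 33.7) for kept regions. The score was part of the rule, so these values describe the choice. Lost peaks made up 7.28% of strong autosomal wild-type peaks. Without the score limit, a double-knockout peak within 500 bp was lacking for 43.8% of the weaker autosomal wild-type peaks and 32.7% of all autosomal ones. Within the strong peaks the share fell with score, from 14.9% (14.1 to 15.8%) below a score of 16 to 5.63% (4.91 to 6.41%) between 20 and 25. It was 0.192% (0.0829 to 0.378%), or 8 of 4170 peaks, at scores of 40 and above. At the score limit, 42 lost peaks had the lowest admitted score of 12.6, and 46 further peaks without a double-knockout peak stood just below it at 12.5. At the distance limit, 1 lost peak lay 501 bp from a double-knockout peak and 1 kept peak 500 bp.

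Most lost regions lay in otherwise accessible surroundings. The nearest double-knockout peak was a median of 3.33 kb away (quartiles 1.65 and 7.59 kb). A total of 240 lost regions (13%) had one between 0.5 and 1 kb away, 995 (53.9%) between 1 and 5 kb, 225 (12.2%) between 5 and 10 kb, 301 (16.3%) between 10 and 50 kb and 86 (4.66%) at more than 50 kb. For the 1235 within 5 kb, that nearest double-knockout peak was itself often strong, with a median percentile of 76.7 in its own list. For the 387 beyond 10 kb its median percentile was 37.0.

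**Figure D1:**
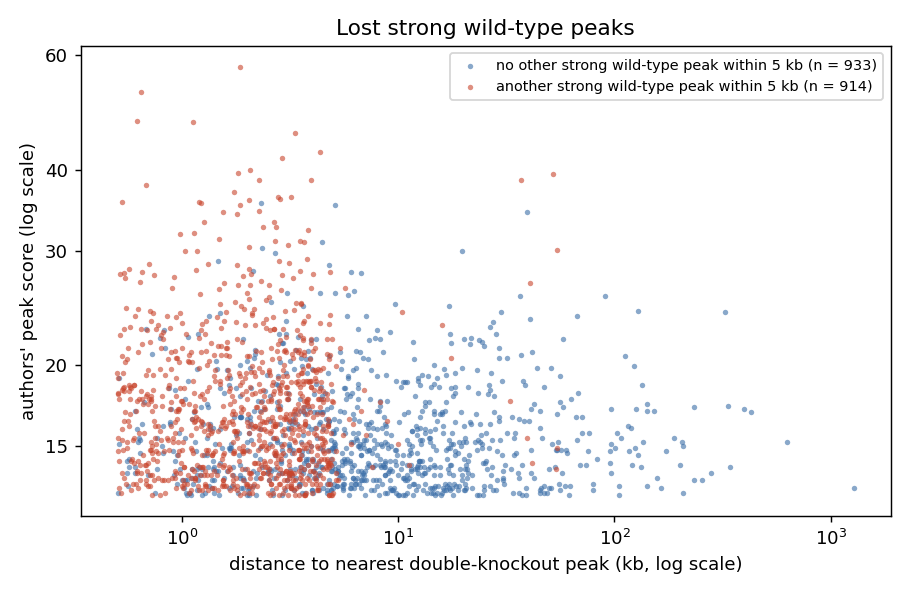
Each point is 1 of the 1847 lost strong wild-type peaks, with the distance to the nearest double-knockout peak in kb (log scale) against the authors' score (log scale). Red points have another strong wild-type peak within 5 kb (914 peaks) and blue points have none (933 peaks). Red points nearly all lie left of 5 kb, and the highest scores are among them.

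Lost regions were split into 2 settings by whether another strong wild-type peak lay within 5 kb. In the first, 914 of them (49.5%) had one. In the second, 933 (50.5%) had none. The sizes are nearly equal because the limit is close to the median distance of lost regions to another strong peak, 5.09 kb. That median was 11.7 kb for kept regions. Of all 25359 strong peaks, 8314 had another strong peak within 5 kb. The nearest strong peak was the stronger of the pair in 77.6% of the first and 79.3% of the second, and it was itself kept in 90.2% and 89.5%, so the settings were alike in both. Among kept peaks of all scores beside a strong peak, that neighbour was the stronger in 46.5%. With scores under 20 it was the stronger in 83.1% of lost and 70.6% of kept peaks beside a strong peak. The nearest double-knockout peak was a median of 2.15 kb away in the first setting and 7 kb in the second, and it was more than 10 kb away for 13 regions (1.42%) and 374 regions (40.1%), respectively.

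Strong wild-type peaks with a strong neighbour between 0.5 and 5 kb away were lost more often than those without one, and peaks with a still closer strong neighbour less often. With another strong peak within 5 kb, 11% (10.3 to 11.7%) of 8314 were lost, and without one 5.47% (5.14 to 5.83%) of 17045. Among the 8314, however, the 2392 with a strong neighbour up to 0.5 kb away were lost in only 1.51% (1.06 to 2.08%) of cases, against 10.3% (8.89 to 11.8%) at 0.5 to 1 kb, 15.4% (13.5 to 17.4%) at 1 to 2 kb and 17.4% (16 to 18.8%) at 2 to 5 kb. The rule itself bears on the lowest share, since 1 double-knockout peak can lie within 500 bp of both peaks of so close a pair. With the lists exchanged, the share up to 0.5 kb was 1.40% (1.01 to 1.88%). Because lost peaks are weak among the strong, the comparison was repeated for scores under 20, where the shares were 19.5% (18.2 to 20.8%) and 10.3% (9.68 to 11%), and 3.09% (2.05 to 4.47%) with the neighbour up to 0.5 kb away. In that score band the share lost also increased with the strength of the strongest peak between 0.5 and 5 kb away. It was 9.67% (9.06 to 10.3%) with no strong peak there, 16.9% (15 to 18.9%) with a peak of score up to 20, 24.5% (21.6 to 27.5%) from 20 to 30, 34.6% (30.7 to 38.6%) from 30 to 50 and 45.6% (35.0 to 56.4%) above 50. The last value rests on 90 peaks. With the lists exchanged the share rose in the same order, with values of 2.23%, 12.1%, 18.6%, 27.6% and 34.3%. The last of these rests on 105 double-knockout peaks.

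The dependence on distance ended near 5 kb in both lists. Among wild-type peaks with scores under 20, the share lost was 28.9% (22.7 to 35.8%) with the nearest strong peak 4.0 to 4.5 kb away, 22.6% (17.3 to 28.6%) at 4.5 to 5.0 kb, 15.2% (10.7 to 20.7%) at 5.0 to 5.5 kb and 7.91% (4.67 to 12.4%) at 5.5 to 6.0 kb, a fall over several bins. The same count with the lists exchanged, for strong double-knockout peaks with no wild-type peak within 500 bp, gave 17.1% (10.8 to 25.2%) at 4.5 to 5.0 kb and 3.03% (0.629 to 8.60%) at 5.0 to 5.5 kb. Beyond 5.5 kb it stayed between 0 and 3.92% in bins of 0.5 kb up to 10 kb, while the wild-type share stayed between 7.59 and 12.1%. What part peak calling has in a fall that both lists show was not tested. Lost regions beside a strong peak thus had counterparts in the opposite direction.

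**Figure D2:**
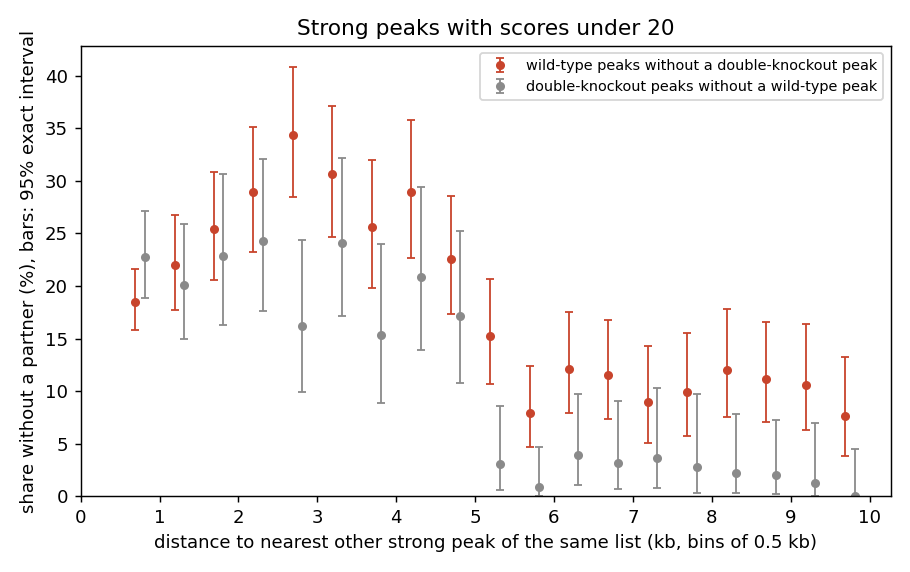
The share of strong peaks with scores under 20 that had no peak of the other list within 500 bp (percent, bars: exact 95% interval) is plotted against the distance to the nearest other strong peak of the same list, in bins of 0.5 kb from 0.5 kb on. Wild-type peaks are red and double-knockout peaks grey. Both series drop near 5 kb, and beyond it the wild-type points lie above the double-knockout points. The score limit of 20 is not matched in rank between the lists.

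The settings differed when the lists were exchanged. In the whole strong set, 649 of 20658 strong autosomal double-knockout peaks (3.14%, score limit 13.5) had no wild-type peak within 500 bp. Beside another strong peak the share was 6.96% (6.40 to 7.56%) in the double knockout and 11% in the wild type, a ratio of 1.58. With no strong peak within 5 kb it was 0.945% (0.787 to 1.13%), or 124 of 13117, in the double knockout and 5.47% in the wild type, a ratio of 5.79. The wild-type list is longer, which makes partners for double-knockout peaks easier to find. With the wild-type list shortened to its strongest 69896 peaks, the length of the double-knockout list, the ratios were 1.29 beside a strong peak and 2.11 without one (3.73% against 1.77%). For scores of 20 or more at equal list length, the regions without a strong neighbour gave 1.13% (0.930 to 1.37%) of wild-type and 0.389% (0.268 to 0.547%) of double-knockout peaks, a ratio of 2.91. The ratio was thus larger among regions standing alone than among regions beside a strong peak, at both list lengths. The difference in percentage points did not keep this order: it was 4.53 for regions standing alone and 4.03 for those beside a strong peak with the whole lists, 1.97 and 2.08 at equal list length, and 0.744 and 1.35 at equal list length for scores of 20 or more. Peaks of score 20 do not hold the same rank in the 2 lists, and with 1 library of each genotype these values describe the libraries.

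Weaker peaks near a lost region were missing from the double knockout about as often as anywhere. Of the 1277 weaker wild-type peaks between 1 and 10 kb from a lost strong peak, 42.3% (39.6 to 45.1%) lacked a double-knockout peak. Around kept strong peaks the share was 40.4% (39.6 to 41.3%), and over all weaker autosomal peaks it was 43.8%. Around the lost regions standing alone it was 44.4% (40.9 to 48.0%), against 40.8% (39.9 to 41.8%) around kept ones standing alone. Strong peaks between 1 and 10 kb from a lost region were themselves lost in 9.18% (7.75 to 10.8%) of 1460 cases, against 11.4% (10.7 to 12.1%) around kept strong peaks. For regions standing alone the order was the other way, with 12.1% (8.50 to 16.4%) of 282 around lost and 8.16% (7.34 to 9.04%) of 4116 around kept ones, and these intervals overlap. Beside a strong peak the shares were 8.47% (6.95 to 10.2%) of 1192 around lost and 14.8% (13.9 to 15.8%) of 5241 around kept ones. A lost region 1 to 10 kb from a kept strong peak counts as its lost neighbour. Of the 914 lost regions beside a strong peak, 90.2% had a kept nearest strong peak. The same peak can also be counted around both a lost and a kept region. The shares are therefore linked by the rule, and their intervals give no test of a difference. In each setting most strong neighbours of a lost region were kept, as were most strong autosomal peaks anywhere, of which 7.28% were lost.

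Peaks found only in the double knockout stood near lost regions more often than near kept ones. At least 1 such peak, with no wild-type peak within 500 bp, lay within 10 kb of 448 of the 1847 lost regions, or 24.3% (22.3 to 26.3%). For kept regions the share was 16.9% (16.4 to 17.4%), and for kept regions with scores under 20 it was 17.9% (17.1 to 18.6%). Lost regions beside a strong peak (24.7%) and those standing alone (23.8%) differed by less than their intervals. The contrast was widest in the shortest window, with 17.1% of lost and 8% of kept regions within 5 kb. Within 25 kb the shares were 40.4% and 35.5%. By construction no such peak can lie within 500 bp of a lost or a kept region. Just past that distance the rule can couple both classes. A wild-type peak and a double-knockout peak slightly over 500 bp apart can count as lost and as double-knockout-only at once. What part such pairs have in the contrast was not tested. Within 50 kb, lost and kept regions each had a median of 7 other wild-type peaks. Double-knockout peaks in that window, not counting those within 500 bp, which the rule fixes, had a median of 6 around both (means 6.42 and 6.04).

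Lost regions were found on all 19 autosomes, and 1053 of the 2038 1 Mb bins that held a strong peak held at least 1. Of these bins, 581 held 1 lost region, 284 held 2 and 188 held 3 or more. The share of strong peaks lost was between 5.37 and 8.61% on 17 of the autosomes. It was highest on chromosome 14, with 110 of 991 peaks, or 11.1% (9.21 to 13.2%), and lowest on chromosome 19, with 26 of 682, or 3.81% (2.51 to 5.54%). The intervals of chromosomes 7 (5.37%, 4.38 to 6.52%), 11 (5.84%, 4.75 to 7.10%) and 19 lay below the overall 7.28%, and only that of chromosome 14 lay above it. Among regions standing alone, chromosomes 14 (8.74%) and 1 (7.33%) had the highest shares and chromosomes 19 (3.02%) and 7 (3.41%) the lowest.

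**Figure D3:**
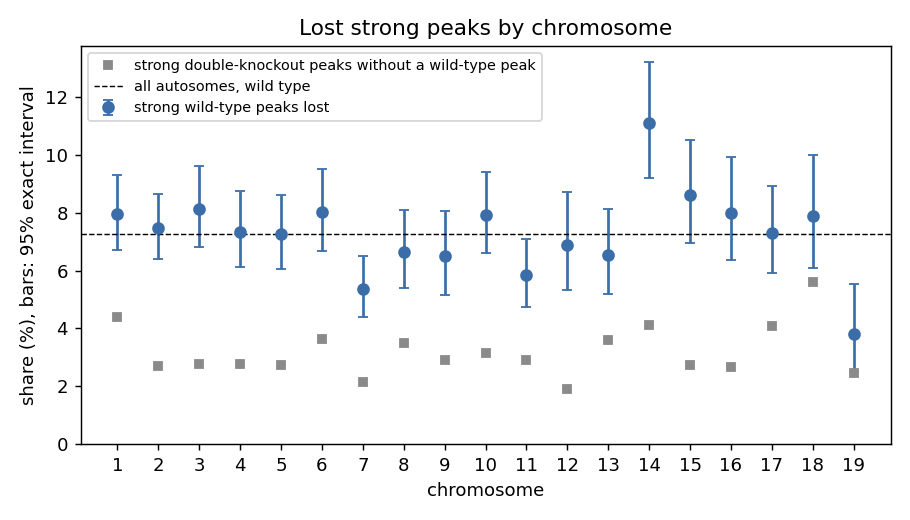
Blue points give the share of strong wild-type peaks that were lost on each of the 19 autosomes (percent, bars: exact 95% interval), and grey squares the share of strong double-knockout peaks with no wild-type peak. The dashed line is the wild-type share over all autosomes, 7.28%, and chromosome 14 is the only one whose whole interval lies above it.

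A single stretch of chromosome 14 held part of that excess. The 1 Mb window with the most lost regions, from 69536710 to 70501432, held 31 strong wild-type peaks, of which 21 were lost (67.7%, 48.6 to 83.3%). Without it, chromosome 14 had 89 lost of 960, or 9.27% (7.51 to 11.3%), against 7.13% (6.81 to 7.46%) on the other autosomes. That share was still above the next highest autosome, chromosome 15 with 8.61%, and its interval still lay above 7.28%. The window was picked for its count, so its share is a description.

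Most lost regions had no other lost region within 50 kb. When lost regions within 50 kb of each other were joined, 1412 of the 1847 (76.4%) had no other lost region in reach, and 167 pairs formed. There were 27 clusters of 3 or more, on 13 chromosomes, with 101 lost regions (5.47%) in all. No equal number of kept regions was joined in this way. These counts therefore do not show whether lost regions cluster rarely or often. In 6 of the 27 every strong wild-type peak was lost, and 1 cluster, on chromosome 3 (50210846 to 50243038), held no double-knockout peak at all: its 3 wild-type peaks were all strong and lost, with scores from 13.3 to 16.3.

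The largest cluster lay inside the chromosome 14 window, from 69942620 to 70067193. All 10 of its strong wild-type peaks were lost, and 17 of its 18 wild-type peaks of any score had no double-knockout peak within 500 bp. The double-knockout list held 1 peak there. The strongest peaks were at 69955204 to 69955354 with a score of 39.4, at 70029262 to 70029412 with 38.6 and at 69957488 to 69957638 with 30.1. For 9 of the 10, the nearest double-knockout peak was between 33.0 and 67.8 kb away, and for the tenth, at 70067043 to 70067193, it was 0.650 kb away. This cluster is the one among the leading 6 in which nearly all accessibility was called in the wild type alone. A second cluster on the same chromosome, from 70174165 to 70261477, had 4 of 5 strong peaks lost, and 9 of its 11 wild-type peaks were without a partner.

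The other leading clusters held lost and kept regions side by side. On chromosome 4 (151461937 to 151564682), 6 of 15 strong peaks were lost, with scores from 12.6 to 24.0, and 14 double-knockout peaks lay between them. On chromosome 3 (135253634 to 135325608), 5 of 8 were lost, each between 2 and 3.24 kb from a double-knockout peak, the strongest at 135291845 to 135291995 with a score of 21.1. On chromosome 8, 5 of 9 were lost between 119994286 and 120067953, with scores from 13.6 to 19.9. On chromosome 10 (80760773 to 80892531), 5 of 13 were lost amid 20 double-knockout peaks. The last, on chromosome 8 (87187987 to 87225499), had the highest median score of the 27, at 31.1: 4 of its 6 strong peaks were lost, with scores from 26.5 to 40, in a pair at each end of the cluster.

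**Figure D4:**
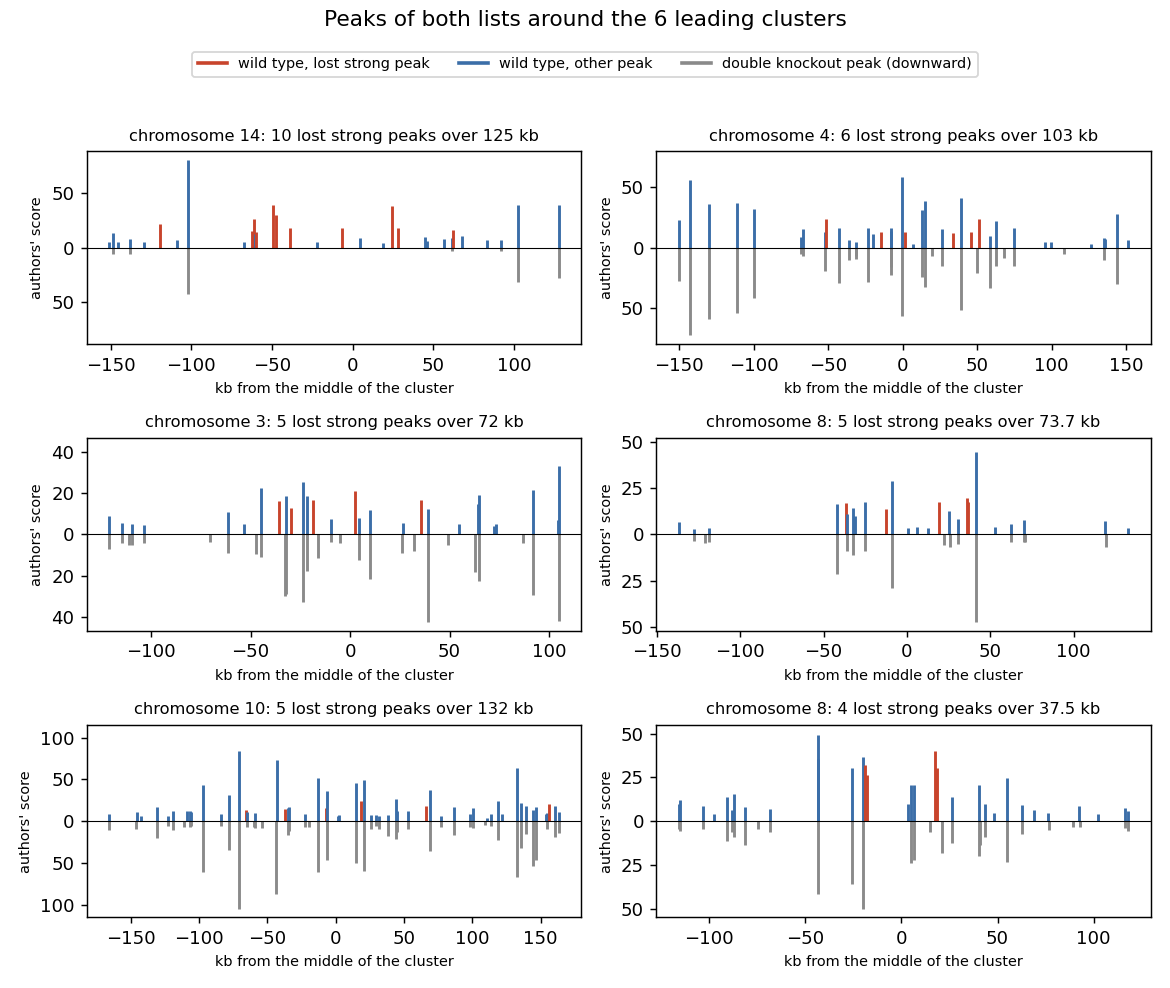
Each panel shows 1 of the 6 leading clusters with 100 kb on either side, as kb from the middle of the cluster. Bars upward are wild-type peaks by score (red: lost strong peaks, blue: all others) and grey bars downward are double-knockout peaks by the score of their own list, which is not on a common scale. The chromosome 14 panel has a gap in the grey bars under the red ones, while the other panels have grey bars between the red ones.

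The strongest lost regions all stood beside another strong peak. The highest score was 57.5, on chromosome 6 (134316821 to 134316971), where a wild-type peak of score 34.1 lay 1.97 kb away and the nearest double-knockout peak 1.86 kb away. The next were on chromosome 7 (6315112 to 6315262, score 52.6), chromosome 17 (57387809 to 57387959, score 47.5) and chromosome 1 (66862604 to 66862754, score 47.4). In these 3 the nearest double-knockout peak was 0.646, 0.619 and 1.12 kb away and had percentiles of 99.7, 99.8 and 94.9 in its list. Chromosome 4 (124795429 to 124795579, score 45.5), chromosome 11 (3028364 to 3028514, score 42.5), chromosome 2 (35359756 to 35359906, score 41.6), chromosome 8 (87223948 to 87224098, score 40), chromosome 18 (score 39.5) and the chromosome 14 peak of score 39.4 completed the first 10. For 9 of the 10 a double-knockout peak lay within 4.32 kb, and only the chromosome 14 peak was far from one, at 52.0 kb.

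Among lost regions standing alone the highest scores were lower. These were chosen after their values were seen. The first was on chromosome 17 (79495139 to 79495289), with a score of 35.5 and a double-knockout peak 2.31 kb away. A peak on chromosome 2 (172887537 to 172887687) had a score of 35.3, with one 5.10 kb away. The third, on chromosome 1 (130256177 to 130256327), had a score of 34.4, and neither a double-knockout peak within 39.5 kb nor another strong wild-type peak within 44.6 kb.

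The most remote lost regions were weak among the strong. The farthest, on chromosome 1 (125831014 to 125831164), was 1280 kb from any double-knockout peak and 1307 kb from another strong wild-type peak, with a score of 12.9. The next were on chromosome 5 (78964477 to 78964627, 626 kb, score 15.2), chromosome 14 (69211544 to 69211694, 431 kb, score 16.9) and chromosome 6 (26156078 to 26156228, 397 kb, score 17.1). The other 6 of the 10 most remote lay between 234 and 342 kb from a double-knockout peak on chromosomes 10, 4, 1, 7, 16 and 8. Their scores ran from 13.3 to 17.3, except for a peak on chromosome 1 (81838665 to 81838815) with 24.1. Other strong wild-type peaks were also far from all 10, with the nearest between 280 and 1307 kb away.

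Genes near the lost regions could be named only at landmark loci. No mm9 annotation was used here, so 30 genes of the E and Id protein, T lineage, recombination, cytokine receptor, progenitor, myeloid and innate lymphoid groups were placed by their approximate mm9 position from general knowledge, to 0.1 Mb, with 200 kb on either side. Of the 387 strong wild-type peaks in these windows, 33 were lost, or 8.53% (5.94 to 11.8%), close to the 7.28% of all strong autosomal peaks. A total of 21 loci held at least 1 lost region and 8 held 2 or more. By group, the lost share was 12 of 121 at 9 T lineage regulators, 6 of 51 at 4 recombination and pre-TCR genes, 3 of 29 at 2 cytokine receptors, 3 of 16 at 2 innate lymphoid genes, 6 of 78 at 7 progenitor genes, 2 of 29 at 2 myeloid genes, 1 of 37 at the E protein genes and 0 of 26 at the Id genes.

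The largest counts were at Rag1 and Runx1. The shares lost there were 28.6% and 26.7%, against 7.28% of all strong autosomal peaks. These are the highest of the listed loci, so the shares describe that ranking. The counts changed with the window. With 100 kb in place of 200 kb, 3 of 10 strong peaks were lost at Rag1 and 2 of 11 at Runx1. With 500 kb, the counts were 5 of 20 and 5 of 18. Rag1 encodes, with its neighbour Rag2, the recombinase that assembles antigen receptor genes. In its window on chromosome 2, 4 of 14 strong peaks were lost. Of these, 3 formed one of the 27 clusters, at 101461847 to 101461997 (score 15.6), 101464775 to 101464925 (16) and 101489604 to 101489754 (13.3), and the nearest double-knockout peaks were 5.53, 4.17 and 1.03 kb away. The fourth, at 101621522 to 101621672 with a score of 14.2, had a weak double-knockout peak, of score 4.25, 554 bp away, just past the distance limit. The lost peaks had lower scores than every one of the 10 kept ones in the window, which ran from 16.2 to 59.4. The first pair lay 2.78 kb from each other, and the others stood alone, with the nearest strong peak 15.8 and 15.2 kb away.

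At Runx1, a transcription factor needed for blood stem cells and for T cell development, 4 of 15 strong peaks on chromosome 16 were lost. The one at 92822466 to 92822616, with a score of 20.9, lay 3.74 kb from a kept peak of score 34.1, and the one at 92801245 to 92801395, with 14.8, lay 653 bp from a kept peak of 35.8 and only 533 bp from a double-knockout peak. The other 2, at 93029012 to 93029162 (17) and 93032017 to 93032167 (12.7), lay next to each other with a double-knockout peak no nearer than 3.74 kb. Each had a strong peak within 5 kb.

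**Figure D5:**
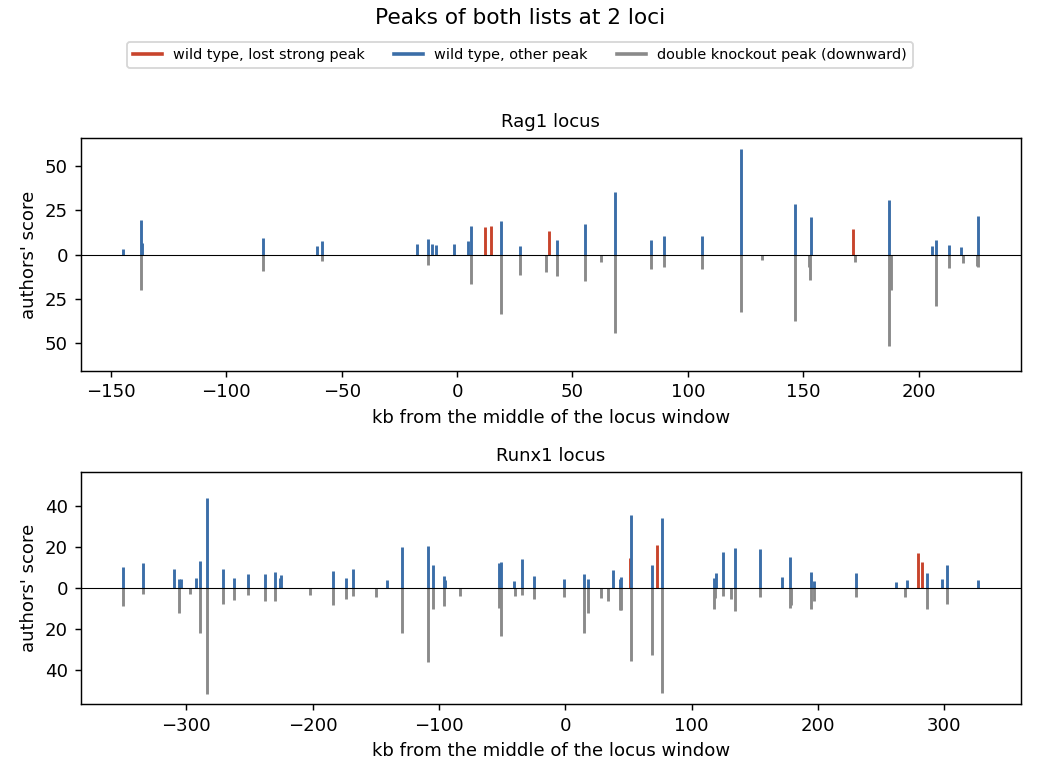
Peaks of both lists in the windows at Rag1 and Runx1, as kb from the middle of each window. Bars upward are wild-type peaks by score (red: lost strong peaks, blue: all others), and grey bars downward are double-knockout peaks by the score of their own list, not on a common scale. At Rag1 the red bars are shorter than the strong blue bars, and at both loci the tallest blue bars have grey counterparts.

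The other loci had fewer. Gata3, a zinc-finger factor required for T cell commitment, had 2 of 11 strong peaks lost, at 9609915 to 9610065 (score 19.7) and 9887352 to 9887502 (16.9) on chromosome 2. Both stood alone. Ets1, an ETS factor of lymphoid cells, had 2 of 14, and Ikzf1, which encodes the lymphoid factor Ikaros, had 2 of 25, including a peak of score 26.1 at 11663230 to 11663380 on chromosome 11. Kit, the receptor by which ETPs are sorted, had 2 of 10, Il2ra, which encodes CD25, 2 of 19, and Zbtb16, which encodes the innate lymphocyte factor PLZF, 2 of 10. Bcl11b, a T cell commitment factor, had 1 of 6, at 109479564 to 109479714 on chromosome 12 with a score of 13.7, and 18 of the 38 double-knockout peaks in its window (47.4%) had no wild-type partner, against 16.4% of all autosomal double-knockout peaks. Tcf7, which encodes TCF-1, had 1 of 15. Tcf3, the gene of E2A, had 1 of 33, a peak of score 27.8 that lay 0.602 kb from a kept peak of score 70.2. Tcf12, the gene of HEB, had 0 of 4, and Id2 had 0 of 8. At every one of these loci most strong peaks were kept.

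The chromosome 3 cluster described above lies at about the place of Nfkb1, which encodes the p50 subunit of NF-kappa B. This gene was not among the 30 and was looked up after the cluster was seen. In the window set around it, 5 of 21 strong peaks were lost (23.8%), all in that cluster, against 7.28% of all strong autosomal peaks. The cluster led to the gene, so this share describes the choice. Of the 41 double-knockout peaks there, 12 (29.3%) had no wild-type partner, against 16.4% over all autosomes. That 29.3% lies inside the range of the 30 listed loci, 0 to 47.4%.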

How the data were processed

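The deposited data were 1 ATAC-seq peak list per library, with chromosome, start, end, name, score and strand. No source used here gives the unit of the authors' deposited score. It served for ranking peaks and setting limits inside each list. The split at a score of 20 was the exception, as the same value was used in both lists. It does not mark the same rank: 19.9 was at percentile 83.6 in the wild-type list and 19.5 at 79.5 in the double-knockout list. Per the submitters' processing notes, bcl2fastq 1.8.4, Bowtie and HOMER were used and the build was mm9, with no settings stated. Peak-calling threshold, duplicate treatment, any filter against neighbouring signal and read-end shifting are likewise unstated, and each could change which peaks are listed. All wild-type peaks but 1 are 151 bp wide.

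Coordinates are mm9 and 1-based. Gaps were measured between peak edges with Python 3.11.15, NumPy 2.4.6 and pandas 2.3.3, and intervals with SciPy 1.17.1. The gap and cluster steps were tested on simulated data. Regions named were the 10 lost regions with the highest score, the 10 farthest from a double-knockout peak, the 6 clusters with most members, the peaks at each limit, listed loci with at least 2 lost regions and, whatever their count, the loci of E2A, HEB, Id2, Bcl11b, Gata3, Tcf7 and Rag1. Members, lists and limits were chosen with earlier results of these data known, and the split at 5 kb, the 1 Mb window and equal-length ratios after seeing these. A gene table of build GRCm38 placed all 30 listed genes on the same chromosome, and no coordinate was converted. Sequence motifs were not run, as no mm9 sequence was used here.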

Additional observations from a re-analysis of the deposited data

How the results depend on the processing

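No paired analysis was possible because each genotype has a single library, so leaving out a replicate could not be tried either. The planned count of sequence motifs was not run. Of 55 alternatives to 13 values, 21 stayed within the interval of the value (for counts, within 1.5 times). The number of lost regions was 623 of 16937 strong peaks (3.68%) at the 80th and 3441 of 33772 (10.2%) at the 60th percentile. It was 3579 of 25359 (14.1%) when only an overlapping peak counted as a partner and 612 of 25359 (2.41%) with 5 kb. At equal list length it was 1116 of 20761 (5.38%). Strong double-knockout peaks without a partner numbered 199 of 13687 (1.45%) and 1278 of 27644 (4.62%) at the 80th and 60th percentile. The median distance to a double-knockout peak was 2.78 and 3.85 kb at these percentiles. The share of weaker neighbours missing was 35.7% in a 5 kb window (43.2% around kept peaks), 49.4% with 0 bp (47.1%), 53.0% with 5 kb (19.6%, where the limit itself empties the surroundings), 35.0% at the 80th (36.4%) and 48.4% at the 60th percentile (44.7%). Double-knockout peaks around lost relative to kept regions were 0.894 times in 50 kb and 0.838 times in 25 kb, counts that include the partner each kept region has by rule. Without peaks within 500 bp, an alternative chosen after seeing the data, the direction turned, to 1.06 in 50 kb, 1.16 in 25 kb and 1.01 in 100 kb. Double-knockout-only peaks lay near 17.1% of lost regions in 5 kb (8% of kept) and 40.4% in 25 kb (35.5%). Chromosome 14 had 7.09% lost at the 80th percentile (3.68% overall). Chromosome 19 had 1.36% at the 80th and 7.17% at the 60th percentile (10.2% overall). Clusters numbered 13 with gaps of 25 kb, 53 with 100 kb, and 5 and 93 at the 80th and 60th percentile. For regions standing alone the ratio of wild-type to double-knockout shares was 3.27 with 2 kb as the distance, 2.11 at equal list length and 4 at the 60th percentile. Beside a strong peak it was 1.36 with 2 kb, 1.29 at equal list length, 1.83 at the 80th percentile and 1.95 with 1 kb as the limit for loss. Alternatives to these ratios were also chosen after seeing the data. The cause of the other shifts was not tested.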
